A study of Mus musculus with 80 samples.

Results

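The 9 genes described here encode parts of the LIF and Stat3 pathway of mouse embryonic stem cells (ESCs), and they were chosen by symbol as the rows of the deposited RNA-seq table named Lif, Lifr, Il6st, Stat3, Socs3, Pim1, Gbx2, Junb and Bcl3. All 9 had 1 row each among the 25965 rows of the table, and all 9 passed the filter on low values. The RNA-seq experiment asked how expression changes when ESCs are moved from serum medium to 2i. It held 12 libraries of the wild-type mouse ESC line E14, with 3 replicates each in serum and after 6, 24 and 72 h in 2i. Cells in serum grew in fetal calf serum with LIF, and 2i is a serum-free medium with LIF and inhibitors of the kinases MEK and GSK3, so that LIF was present in every group and MEK and GSK3 inhibition came together with the loss of serum. The same medium change was profiled by ChIP-seq of H3K9me2, histone H3 that carries 2 methyl groups on lysine 9, with 2 bound libraries and 1 input each for serum, 24 h in 2i and long-term 2i (LT2i). E14 is a single established line, the study calls its expression replicates biological, and the labels do not say whether they were separate cultures, so that p-values measure the spread between these libraries.

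LIF is a cytokine of the interleukin-6 family. It binds the receptor subunit Lifr, which pairs with the shared signalling subunit gp130, encoded by Il6st. Kinases of the JAK family bound to these subunits then phosphorylate Stat3, which moves to the nucleus and switches on its targets. One of these targets is Socs3, which binds gp130 and the kinases and shuts the signal down. In ESCs the pathway is known for holding cells in self-renewal in serum, where LIF is required.

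A deposited log2 value is reads per kilobase of exon, scaled by the authors to a common level, and values of different genes can therefore be compared per length. Whole reads could be recovered from these values for 25939 of 25965 rows, within 0.02 reads in every library, and gave 10532944 to 15561978 reads per library. A log2 value of 0 stood for 15.6 to 23 reads per kilobase, depending on the library. All 10 ESC markers examined passed the filter, and their summed linear level was 1464 to 3898 in single libraries. The sum was led by Dppa5a in every group, and single markers went both ways. At a limma adjusted p under 0.05, 4 of the 10 were higher and 4 lower at 72 h than in serum. The shares of all genes were 25.7% and 26.5%. Lin28a went from a mean of 6.73 to 2.81 and Nanog from 6.78 to 8.49. The 8 fibroblast feeder markers, of which 3 passed the filter, summed to between 5.46 and 10.7. Summed levels were 3.79 to 4.95 for 7 primitive endoderm markers, 2.24 to 5.04 for 5 trophoblast markers and 1.85 to 3.87 for 5 mesoderm markers. The 5 neural markers, led by Tubb3 in every group, changed with time. They summed to 43.2 to 45.0 in serum, 90.2 to 92.7 at 6 h, 56.5 to 74.7 at 24 h and 27.8 to 32.7 at 72 h. Libraries at 24 h stood apart from one another. Replicates 1 and 3 correlated at r = 0.947 over the 12306 genes tested, below the highest correlation of either with a library of another time (0.948 and 0.951), whereas the lowest correlation within any other group was 0.963. For the 9 genes described here, values at 24 h are therefore given with each library. Calls of these genes that were lost or gained without 1 library are named beside the result. Fits without 1 library were not read for other genes of the pathway.

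On transfer to 2i the 9 genes moved in different directions. A gene was called at an adjusted p under 0.05 in limma over all 12306 genes. After 6 h, 4 of the 9 genes were called and all 4 had fallen (Lifr, Socs3, Pim1 and Junb), when 15.6% of all genes were called, 9.13% as higher and 6.48% as lower. Only Lifr and Junb were called without serum replicate 1 or 3 or 6 h replicate 1 or 2, and with the trend on gene span removed. After 24 h, 6 were called. Lif had risen, and Lifr, Il6st, Stat3, Gbx2 and Junb had fallen, against 63.3% of all genes called, 34.2% as higher and 29.1% as lower. After 72 h, 6 were again called. Lif, Pim1 and Bcl3 had risen and Lifr, Gbx2 and Junb had fallen, while 52.2% of all genes were called, 25.7% as higher and 26.5% as lower. Higher genes made up 49.2% of the calls at 72 h, and 58.9% with recovered reads scaled to total reads. The share of members called at 24 and 72 h was thus close to that of all genes. The median change of the 9 genes against serum, on the log2 scale, was -0.22, -0.40 and 0.07 after 6, 24 and 72 h, beside 0.01, 0.11 and -0.01 for all genes tested.

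Between successive times, 7 members were called from 6 to 24 h, with Lif, Socs3 and Pim1 higher and Lifr, Il6st, Stat3 and Gbx2 lower, when 59.4% of all genes were called, 31.4% as higher and 28% as lower. From 24 to 72 h, 6 were called, with Lifr, Il6st, Stat3, Pim1 and Bcl3 higher and Gbx2 lower, and 31.6% of all genes were called, 15.8% as higher and 15.7% as lower. These comparisons share their 24 h libraries. When a log2 change of 1 or more was required as well, no member was called at 6 h against serum, where 5.3% of all genes were. Under that rule Lifr and Gbx2 were called at 24 h (27.5% of all genes), and Lifr, Gbx2, Junb and Bcl3 at 72 h (21%). From 6 to 24 h the rule called Il6st and Gbx2 (22% of all genes), and from 24 to 72 h no member (9.54%).

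**Figure D1:**
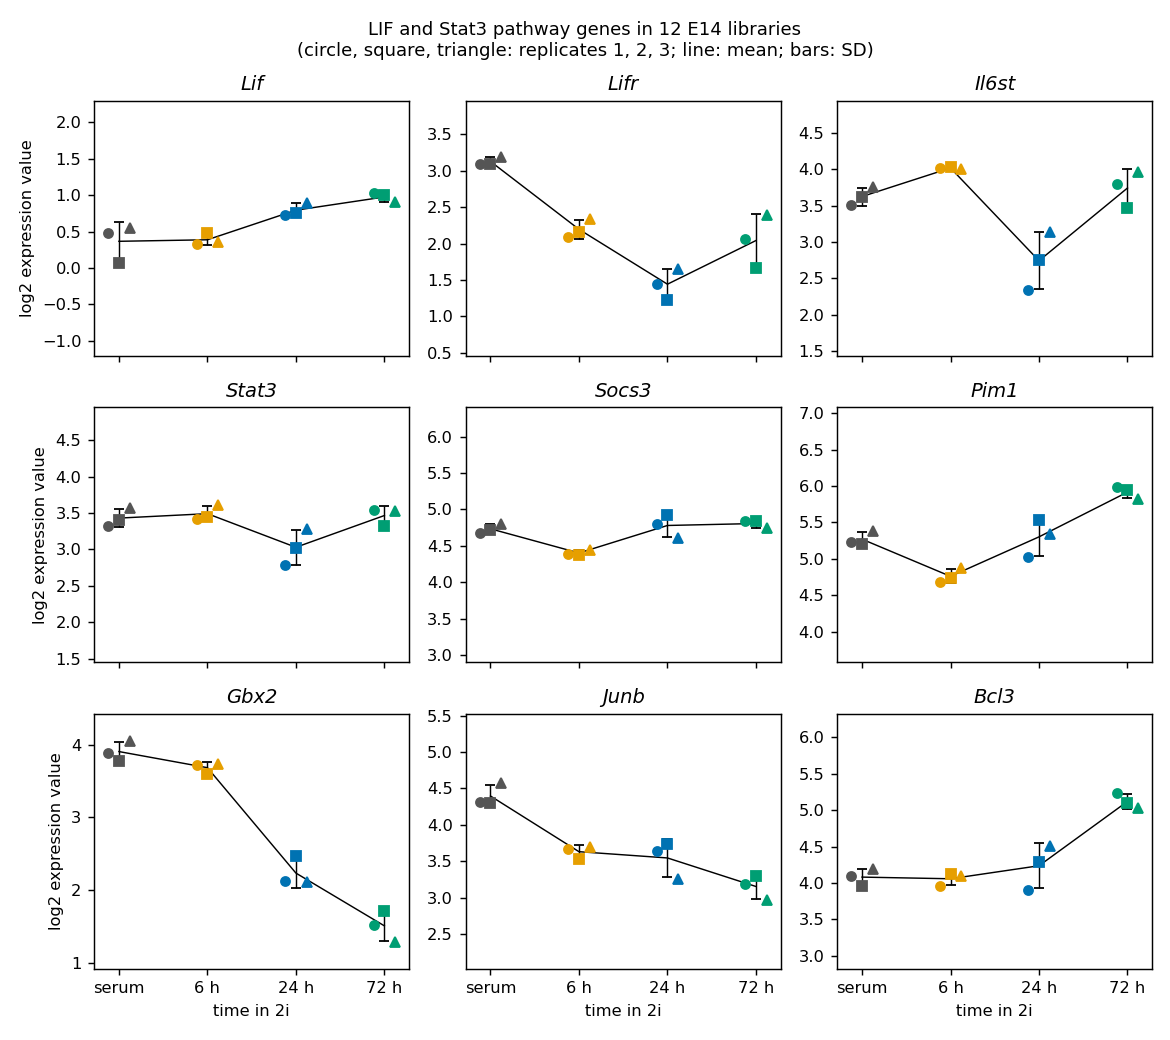
Deposited log2 expression values (vertical axis, the same span of 3.5 log2 units in each panel) of the 9 genes in serum and after 6, 24 and 72 h in 2i, with 1 point per library, the line through the group means and bars of 1 SD (n = 3). Gbx2 fell from a mean of 3.90 to 1.51, Bcl3 rose from 4.08 to 5.12, and Il6st and Stat3 were lowest at 24 h.

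Lif itself, the gene of the ligand (chromosome 11, 4257557 to 4272514, plus strand, GRCm38), was the least expressed of the 9 and rose in 2i. Its log2 values were 0.48, 0.07 and 0.55 in serum replicates 1 to 3, and 0.33, 0.47 and 0.36 at 6 h. They reached 0.73, 0.76 and 0.90 at 24 h and 1.03, 1.00 and 0.90 at 72 h. The libraries of 24 and 72 h all lay above those of serum and 6 h. The rise was 1.34-fold at 24 h (log2 change 0.43 ± 0.14 SE, limma adjusted p = 0.0232) and 1.53-fold at 72 h (0.61 ± 0.14, limma adjusted p = 0.00432). These values rest on 71 to 204 reads per library, the lowest range of any member, and the 24 h call was lost without serum replicate 2 (0.28, limma adjusted p = 0.101) and without 24 h replicate 3 (0.0577). The 6 to 24 h call was lost without 6 h replicate 1 or 3 or 24 h replicate 2 or 3 (limma adjusted p 0.0586 to 0.0855). When only the 2 groups compared were fitted, neither the 24 h call nor the 6 to 24 h call held (limma adjusted p = 0.0858 and 0.0556).

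The receptor subunits took different courses. Lifr, the subunit that binds LIF (chromosome 15, 7129559 to 7197489, plus strand), had log2 values of 3.10, 3.09 and 3.19 in serum. At 6 h they were 2.09, 2.15 and 2.34. They dropped to 1.45, 1.23 and 1.65 at 24 h and stood at 2.06, 1.67 and 2.39 at 72 h. Every 2i library lay below every serum library. Lifr was 1.91-fold lower at 6 h (log2 change -0.93 ± 0.17 SE, limma adjusted p = 0.00319), 3.22-fold lower at 24 h (-1.69 ± 0.17, 1.19e-05) and 2.12-fold lower at 72 h (-1.09 ± 0.17, 0.000282). In bulk libraries such as these, fewer cells with a transcript and less of it per cell cannot be told apart. A partial return from 24 to 72 h was called (0.60 ± 0.17, limma adjusted p = 0.0214). It was not called without 24 h replicate 2, 72 h replicate 1 or 72 h replicate 3 (limma adjusted p 0.0668 to 0.0887), where its size was 0.42 to 0.59.

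Il6st, which encodes gp130 (chromosome 13, 112475008 to 112506860, plus strand), had log2 values of 3.51, 3.62 and 3.75 in serum and 4.02, 4.04 and 4.00 at 6 h. At 24 h they were 2.35, 2.75 and 3.13, and at 72 h 3.80, 3.46 and 3.97. The 6 h libraries lay above all serum libraries and the 24 h libraries below them, while serum and 72 h overlapped. The 6 h difference of 0.39 (95% interval -0.01 to 0.79) was not called in the fit of all groups (limma adjusted p = 0.199), although it was when only these 6 libraries were fitted (limma adjusted p = 0.00674). At 24 h Il6st was 1.84-fold lower than in serum (log2 change -0.88 ± 0.18 SE, limma adjusted p = 0.00157), and by 72 h it had come back by 1.00 ± 0.18 (limma adjusted p = 0.00201) to within 0.12 of serum. Within each library Lifr lay below Il6st, by a mean of -0.50 ± 0.08 (SD, n = 3) log2 units in serum. The gap was -1.82 ± 0.14 after 6 h of 2i, -1.30 ± 0.35 after 24 h and -1.70 ± 0.11 after 72 h. This difference does not depend on a factor common to all genes of a library, and every 2i library showed a wider gap than every serum library. It may still carry a trend on gene span, since Lifr spans 67931 bp and Il6st 31853 bp of the genome. The gap was not read with that trend removed.

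Stat3, the transcription factor of the pathway (chromosome 11, 100885098 to 100939540, minus strand), moved little. Its log2 values were 3.32, 3.40 and 3.57 in serum and 3.42, 3.44 and 3.61 at 6 h. After 24 h they read 2.79, 3.02 and 3.28, and after 72 h 3.55, 3.32 and 3.53. Serum, 6 h and 72 h overlapped, and only the 24 h libraries lay below serum. The difference to serum was 0.06 at 6 h (95% interval -0.23 to 0.35) and 0.04 at 72 h (-0.26 to 0.33). At 24 h it was -0.40 ± 0.13 SE (limma adjusted p = 0.021). This call was lost without serum replicate 3, 24 h replicate 1 or 24 h replicate 2 (limma adjusted p 0.0521 to 0.0832). It was also lost on the recovered reads (limma-voom adjusted p = 0.0615) and with only serum and 24 h fitted (limma adjusted p = 0.0656). The call of the return from 24 to 72 h (0.44 ± 0.13, limma adjusted p = 0.0285) was lost without 24 h replicate 1 or 2 or 72 h replicate 1 or 3 (limma adjusted p 0.0755 to 0.101), where its size was 0.32 to 0.43.

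Socs3, the feedback inhibitor and best-known direct target of Stat3, dipped at 6 h and was otherwise near its serum level under the deposited scaling. It lies on chromosome 11 (117966079 to 117970047, minus strand). Serum libraries had log2 values of 4.68, 4.72 and 4.80, and those of 6 h had 4.38, 4.38 and 4.44. After 24 h the values were 4.80, 4.92 and 4.61, and after 72 h 4.84, 4.84 and 4.74. The 6 h libraries lay below all others, and serum, 24 h and 72 h overlapped. The 6 h fall was 1.26-fold (log2 change -0.33 ± 0.10 SE, limma adjusted p = 0.0406), close to the threshold. The call was lost without any 1 of the serum or 6 h libraries or without 72 h replicate 1 (limma adjusted p 0.0625 to 0.131), with changes of -0.36 to -0.30. Against serum the difference was 0.05 (95% interval -0.17 to 0.26) at 24 h and 0.07 (-0.14 to 0.29) at 72 h. With the trend on gene span removed, the 24 h difference to serum was -0.38 and called (limma adjusted p = 0.00952). From 6 to 24 h Socs3 rose 1.30-fold (0.38 ± 0.10, limma adjusted p = 0.00678), but with the trend on gene span removed that difference was -0.06 (0.652), and a rise of 0.32 from 24 to 72 h was called (limma adjusted p = 0.0422) in place of 0.03.

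Stat3 dimers bind the palindrome TTCNNNGAA, and promoter windows from RefSeq (GRCm38.p6, 250 bases before to 50 after an annotated start) were searched for these letters, which read the same on both strands. All 9 genes had a window, 11 windows in all, since Lifr and Pim1 had 2 each. Of these 11, the Socs3 window alone held the letters, once, and 8.3% of all 32851 windows did. The window is shown with the match in capitals, from position chr11:117969317-117969616 on the minus strand.
Socs3: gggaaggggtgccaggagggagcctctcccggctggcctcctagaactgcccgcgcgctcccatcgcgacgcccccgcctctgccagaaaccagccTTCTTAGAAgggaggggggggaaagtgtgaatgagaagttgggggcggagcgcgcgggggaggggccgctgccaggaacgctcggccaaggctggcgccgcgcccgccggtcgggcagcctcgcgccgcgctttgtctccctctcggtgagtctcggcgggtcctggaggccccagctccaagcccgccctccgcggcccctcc
The match ran from base 97 to base 105 of the window, that is from 154 to 146 bases before the RefSeq start, which lies inside the span given for Socs3 in the expression table. It is a match of letters only, and the other windows lack these letters in 300 bases without bearing on binding elsewhere. The Socs3 window held 31 CpG dinucleotides, more than 89.4% of all windows, whose median was 7, and member windows ranged from 4 to 53.

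Pim1, a serine/threonine kinase gene that Stat3 induces (chromosome 17, 29490812 to 29495445, plus strand), was the most expressed member in every group. Serum libraries had log2 values of 5.23, 5.20 and 5.38, and those of 6 h had 4.68, 4.73 and 4.87. Libraries of 24 h reached 5.03, 5.54 and 5.34, and those of 72 h 5.98, 5.95 and 5.82. The 6 h libraries lay below and the 72 h libraries above all serum libraries. The fall at 6 h was 1.42-fold (log2 change -0.51 ± 0.13 SE, limma adjusted p = 0.0205). Its call was lost without serum replicate 1 or 3 or 6 h replicate 1 or 2 (limma adjusted p 0.0579 to 0.0863), with changes of -0.53 to -0.46. Quantile normalisation also ended the 6 h call (-0.47, limma adjusted p = 0.0618). Pim1 then rose from 6 to 24 h (0.54 ± 0.13, 0.0045) and from 24 to 72 h (0.61 ± 0.13, 0.00472), and ended 1.57-fold above serum (0.65 ± 0.13, limma adjusted p = 0.00153). The 6 to 24 h call was lost with the trend on gene span removed (0.12, limma adjusted p = 0.554).

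Gbx2, a homeobox transcription factor and Stat3 target that can sustain self-renewal when overexpressed (chromosome 1, 89927962 to 89933290, minus strand), had the lowest change of the 9 at 72 h. Its log2 values were 3.88, 3.78 and 4.05 in serum and 3.72, 3.60 and 3.73 at 6 h. They were 2.13, 2.47 and 2.11 at 24 h and 1.53, 1.72 and 1.29 at 72 h. The groups did not overlap, and each later time lay below the one before. The difference at 6 h was not called (-0.22, 95% interval -0.52 to 0.08, limma adjusted p = 0.363). Gbx2 was 3.18-fold lower at 24 h (log2 change -1.67 ± 0.14 SE, limma adjusted p = 2.78e-06) and 5.26-fold lower at 72 h (-2.39 ± 0.14, 1.21e-07), a change lower than that of all but 1.8% of the genes tested. Reads per library went from 908 to 1608 in serum to 199 to 281 at 72 h.

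Junb, a subunit of the AP-1 transcription factor and an immediate-early gene (chromosome 8, 84976909 to 84978748, minus strand), had log2 values of 4.32, 4.30 and 4.57 in serum and 3.67, 3.53 and 3.70 at 6 h. At 24 h they were 3.65, 3.73 and 3.26, and at 72 h 3.18, 3.30 and 2.97. All 9 of the 2i libraries lay below all serum libraries. Junb was 1.70-fold lower at 6 h (log2 change -0.76 ± 0.14 SE, limma adjusted p = 0.00341), 1.80-fold at 24 h (-0.85 ± 0.14, 0.000377) and 2.37-fold at 72 h (-1.24 ± 0.14, 2.53e-05). Its further difference from 24 to 72 h of -0.39 (95% interval -0.70 to -0.08) was not called (limma adjusted p = 0.0549), and was called without 24 h replicate 3 (0.00475) or 72 h replicate 2 (0.0375), with a replicate block (0.0456) and after quantile normalisation (0.0479). From 6 to 24 h the difference was -0.09, and with the trend on gene span removed it was -0.59 and called (limma adjusted p = 0.00162).

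Bcl3, an atypical IκB protein that works with NF-κB subunits and is a Stat3 target in ESCs (chromosome 7, 19808462 to 19822770, minus strand), rose late. Serum gave log2 values of 4.10, 3.96 and 4.19, and 6 h gave 3.96, 4.12 and 4.09. At 24 h replicates 1 to 3 had 3.91, 4.29 and 4.51, and the 72 h libraries had 5.24, 5.10 and 5.03. The first 3 groups overlapped, and the 72 h libraries lay above them all. Bcl3 was 2.06-fold higher than serum at 72 h (log2 change 1.04 ± 0.14 SE, limma adjusted p = 0.000108), and most of this came after 24 h (0.88 ± 0.14, 0.000988). At 24 h the difference was 0.16 (95% interval -0.16 to 0.47), and it was called without 24 h replicate 1 (0.32, limma adjusted p = 0.0401), as was the difference from 6 to 24 h (0.34, limma adjusted p = 0.0345).

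**Figure D2:**
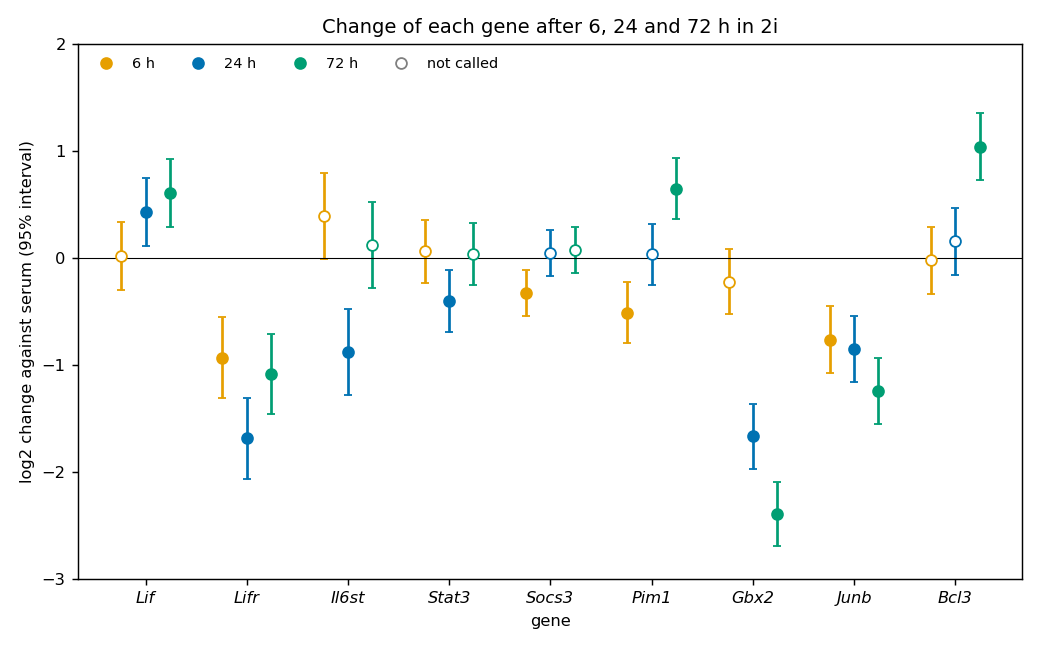
Log2 change against serum (vertical axis) of each gene after 6, 24 and 72 h in 2i, from the limma fit of all 12 libraries, with 95% intervals and open points where the adjusted p was 0.05 or more. Gbx2 reached -2.39 and Bcl3 1.04 at 72 h, and Lifr was lowest at 24 h with -1.69.

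The Stat3 targets among the members therefore ended apart, with Pim1 and Bcl3 above serum at 72 h, Gbx2 and Junb below it, and Socs3 with an interval that spans 0. The difference between Bcl3 and Gbx2 within a library, which a factor common to all genes of a library cannot alter, went from a mean of 0.18 ± 0.04 (SD, n = 3) log2 units in serum to 0.37 ± 0.15, 2.00 ± 0.35 and 3.61 ± 0.20 after 6, 24 and 72 h of 2i. That difference was not read with the trend on gene span removed. In serum the order of levels per length was Pim1, Socs3, Junb, Bcl3, Gbx2, Il6st, Stat3, Lifr and Lif. Neighbours in this order did not overlap, except Bcl3 with Gbx2 and Il6st with Stat3. At 72 h the order was Pim1, Bcl3, Socs3, Il6st, Stat3, Junb, Lifr, Gbx2 and Lif, with overlap between Il6st and Stat3 and between Lifr and Gbx2. Bcl3 had gone from the level of Gbx2 in serum to the second place, and Gbx2 to the last but one.

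At 24 h the calls of some members depended on how gene length in the genome was treated. The members span from 1840 bp (Junb) to 67931 bp (Lifr) of the genome. When a smooth trend of the log2 value on gene span was removed within each library, the median change of all genes at 24 h went from 0.11 to 0.00. Socs3 then was lower at 24 h than in serum (-0.38 ± 0.11 SE, limma adjusted p = 0.00952) in place of 0.05, and Stat3 (-0.15, limma adjusted p = 0.203) and Lif (0.25, 0.178) were no longer called. The falls of Lifr (-1.37), Il6st (-0.85), Gbx2 (-2.05) and Junb (-1.34) remained called. Quantile normalisation and scaling to total reads left all members within 0.10 of the main value at 24 h. Whether the span trend belongs to the cells or to the libraries was not tested.

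**Figure D3:**
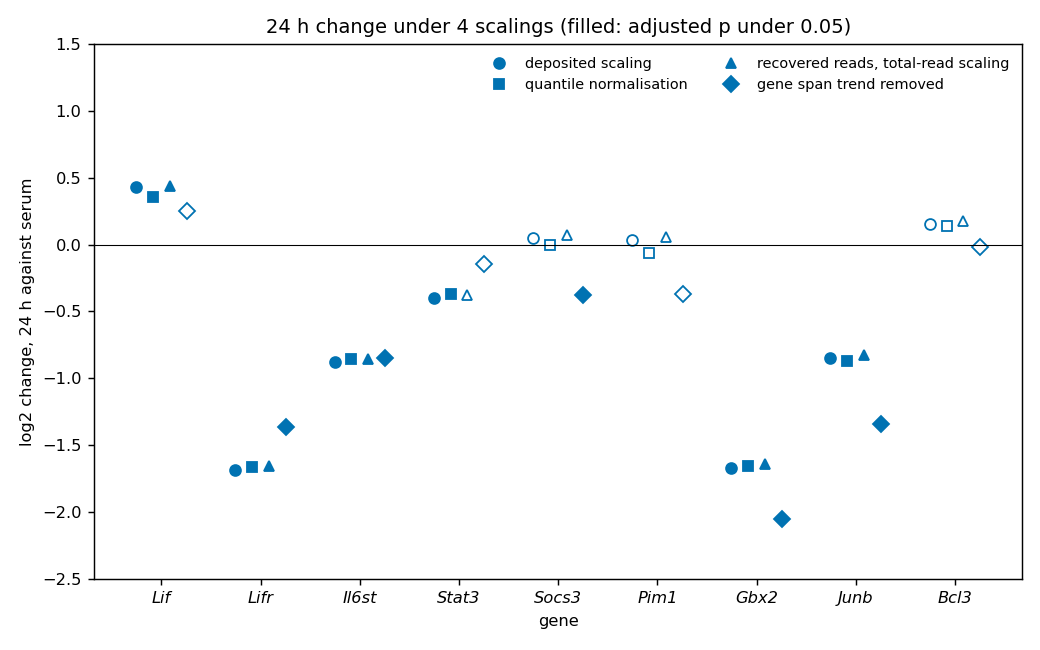
Log2 change at 24 h against serum (vertical axis) of the 9 genes under the deposited scaling, quantile normalisation, limma-voom on recovered reads scaled to total reads, and removal of the trend with gene span, with filled points at an adjusted p under 0.05. Socs3 was at 0.05 under the deposited scaling and at -0.38 after removal of the span trend, and Lifr, Il6st, Gbx2 and Junb were filled throughout.

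The genes whose log2 values most resembled each member over the 12 libraries were found by Pearson correlation, as a description of 4 groups that share their libraries. Gbx2 was most like Capn2 (r = 0.990), Ccnd1 (0.988) and Csf1 (0.988), and 141 genes reached r = 0.95 with it. For Il6st these were Exoc6b (0.989), Fam59a and Bcorl1, and for Stat3 Mnt (0.982), Sema4d and Glg1. Lifr was nearest to L1td1 (0.979), Nufip2 and Wapal, and Junb to Ino80e (0.981), Id3 and Farsa. Pim1 lay nearest to Shisa5 (0.982), Adamts8 and Zfp64, and Bcl3 to Slc13a5 (0.977), Prr13 and Fam102a. Socs3 and Lif had few close neighbours, Narf (0.966), Vasp and Dedd for the former and Oplah (0.944), Rab43 and Tuft1 for the latter, and no gene reached 0.95 with Lif. Among the members, Il6st and Stat3 had r = 0.94, and both were lowest in 24 h replicate 1.

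A list of 60 other genes of the pathway was examined beside the members, comprising related ligands, receptors, kinases, other STATs, inhibitors, further Stat3 targets, and paralogs and partners of the members. Of these, 59 were in the table and 47 passed the filter. At 6 h, 6 of the 47 were called higher and 10 lower, when 15.6% of all genes were called in either direction. At 24 h the counts were 11 and 17 (63.3% of all genes), and at 72 h 15 and 16 (52.2%). The median change of the list at 72 h was -0.02, beside -0.01 for all genes.

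Among the kinases, Jak1, the main kinase bound to gp130, was, like Stat3 and Il6st, called lower at 24 h and not at 6 or 72 h (log2 change -0.48 ± 0.11 SE, limma adjusted p = 0.0038). Its differences at 6 and 72 h were -0.04 and -0.10. The 24 h call of Stat3 was lost with the span trend removed and in other fits, and no alternative fit was read for Jak1. Of the 4 kinases tested, 2 were called higher at 72 h, Jak2 (0.73, limma adjusted p = 0.00196) and Jak3 (1.83, 0.000229), when 25.7% of all genes were. Both are named here after their values were seen. Osmr, the receptor of the related cytokine oncostatin M, did not pass the filter and had log2 values of -7.74 to -4.21.

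Of 10 tested further targets, 4 were higher and 4 lower at 72 h, when 25.7% of all genes were higher and 26.5% lower. Myc, a transcription factor that promotes growth and division, had the largest change of the list, with log2 values of 5.22, 5.05 and 5.23 in serum and 1.25, 1.15 and 1.31 at 6 h. That is a 15.2-fold fall within 6 h (-3.93 ± 0.11 SE, limma adjusted p = 9.75e-09), and the fall reached 55.3-fold at 72 h (-5.79 ± 0.11, 1.26e-10). Tfcp2l1 and Klf4, transcription factors of the naive ESC network, went the other way. Tfcp2l1 was 2.76-fold higher at 6 h (1.46 ± 0.24, limma adjusted p = 0.00143) and 3.21-fold at 72 h (1.68 ± 0.24, 0.000126), but was not called at 24 h (0.42, 0.138). Klf4 differed by 0.35 at 6 h, which was not called (limma adjusted p = 0.0538), and was higher at 24 h (0.44 ± 0.11, 0.00516). At 72 h it was 2.55-fold higher (1.35 ± 0.11, limma adjusted p = 2.03e-06).

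Among paralogs and partners of the members, Pim2 and Fosl1 fell. Pim2, a kinase related to Pim1, fell by 1.08 on the log2 scale within 6 h (limma adjusted p = 3.45e-05) and by 2.52 within 72 h (1.09e-08), whereas Pim1 ended above serum. Fosl1, an AP-1 partner of Junb, fell by 3.09 at 72 h (limma adjusted p = 3.77e-05). It passed the filter only through its serum libraries (0.52, 0.73 and 0.65), so that the filter favoured a fall. Its log2 values at 72 h were low, at -2.49, -2.66 and -2.23. Atf3, a stress-induced transcription factor that can pair with AP-1 proteins, rose by 1.75 ± 0.24 within 6 h (limma adjusted p = 0.000406) and stood 2.27 ± 0.24 above serum after 72 h (1.25e-05). Among 14 tested inhibitors, 1 was higher and 2 lower at 6 h, and 2 were higher and 4 lower at 72 h, beside 15.6% and 52.2% of all genes called in either direction.

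**Figure D4:**
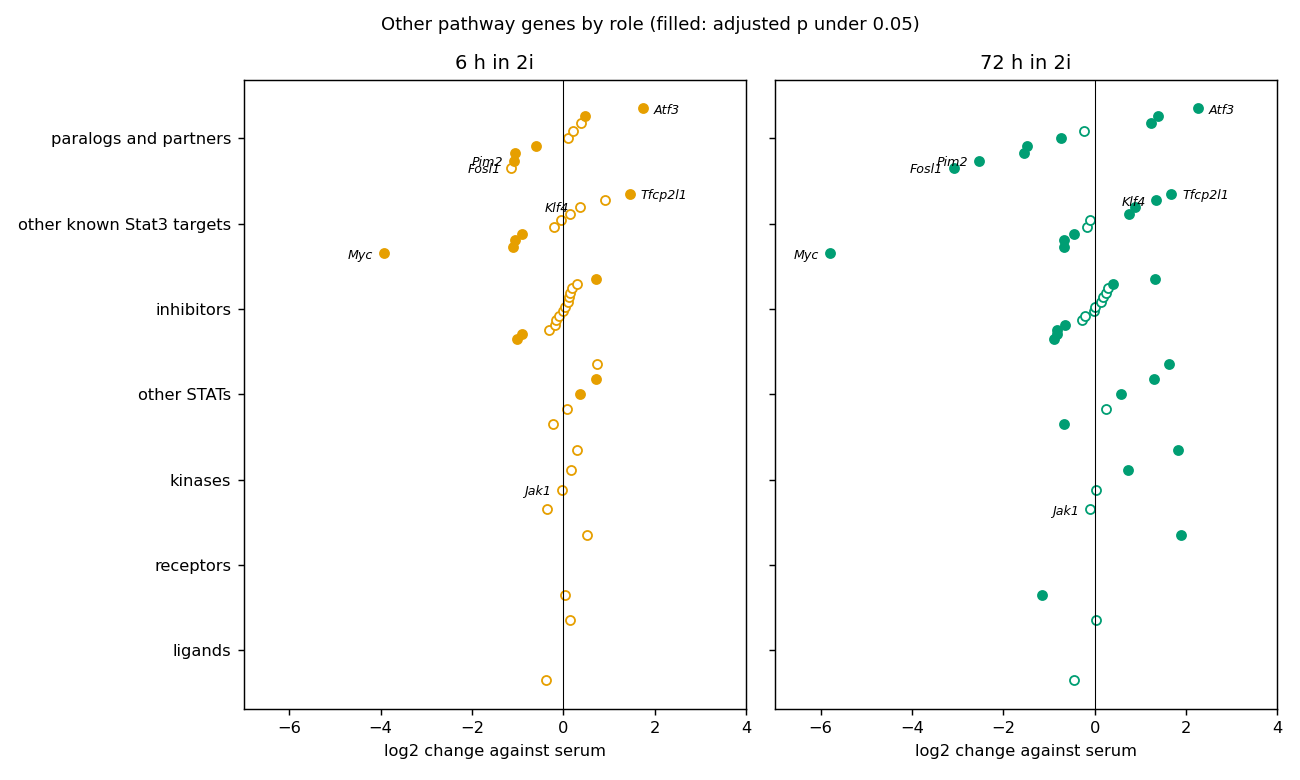
Log2 change against serum (horizontal axis) of 46 of the 47 tested pathway genes that are no members, by role (vertical axis), after 6 h and 72 h in 2i, with filled points at a limma adjusted p under 0.05. Myc lies farthest to the left at both times, at -3.93 and -5.79, and Atf3 farthest to the right, at 1.75 and 2.27.

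H3K9me2, a mark of silent chromatin, was read over the span of each gene as log2 of bound over input reads, each library scaled to a common total. Over these spans the members differed widely in reads. Lif, Lifr, Il6st, Stat3 and Bcl3, which covered 8 to 35 bins of 2 kb, carried between 23 and 479 bound reads in single serum and 24 h libraries. In LT2i replicates 1 and 2, Lifr held 149 and 135, Stat3 66 and 50 and Il6st 62 and 33. Lif held 23 and 16 there and Bcl3 only 9 and 5. Of the 8 bins of Bcl3, 5 were without reads in LT2i replicate 2. Socs3, Pim1, Gbx2 and Junb, which covered 2 to 4 bins, held 0 to 4 bound reads in every bound library beside 33 to 96 in the inputs. The 11762 genes tested for H3K9me2 were those that passed the filter on RNA values and held bins. Genes low in RNA are therefore in none of its shares or medians. In serum Socs3, Pim1, Gbx2 and Junb lay among the lowest 2.22% of the genes tested. Over the span, the log2 values of these 4 are set largely by the 0.9 reads entered for an empty bin, and their changes, that of Socs3 included, are counted but not interpreted. The split did not hold over 5 kb each side of the start in the expression table, where Gbx2 (-2.08) and Pim1 (-2.64) lay above Lifr (-3.06) in serum.

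At 24 h no member was called in limma, and 2 members (Socs3 and Pim1) had an unadjusted p under 0.05, when 0.0255% of all genes were called and 2469 genes had an unadjusted p under 0.05. In LT2i, 6 members were called when 64.4% of all genes were, and 5 of them were lower (61.4% of all genes) and 1 higher (3.06%). Lifr went from -0.77 and -0.94 in the serum replicates to -2.20 and -2.16 in LT2i. The change was -1.32 ± 0.10 SE (limma adjusted p = 0.000382), with 479 and 406 bound reads in serum and 149 and 135 in LT2i. Il6st fell by 1.32 ± 0.17 and Stat3 by 1.26 ± 0.15 (limma adjusted p = 0.00127 and 0.00098). Bcl3 fell by 1.11 ± 0.19 (limma adjusted p = 0.00323), on 35 and 23 bound reads in serum and 9 and 5 in LT2i. Its value in LT2i replicate 2 rests in part on the reads entered for empty bins. Lif fell by 0.78 ± 0.26 (limma adjusted p = 0.0373), a call lost without serum replicate 1 or either LT2i replicate (limma adjusted p 0.102 to 0.138), and the change ran from -1.15 to -0.41 with 1 library left out.

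In each of these 5 genes both LT2i libraries lay below both serum libraries. Read over 5 kb each side of the start in place of the span, Lifr (-0.50, limma adjusted p = 0.115) and Bcl3 (-0.43, 0.141) were not called, and Stat3 was at -0.72. Il6st (-1.65, limma adjusted p = 3.06e-05) and Lif (-0.88, 0.00872) were called there, and so was Gbx2, at -1.20 (limma adjusted p = 0.000371) in place of 0.11 over the span. For Il6st the start in the expression table is 112475008, and its RefSeq promoter window (112463820 to 112464119, plus strand) lies outside these 5 kb. With 10 reads added per bin the changes of Lifr, Il6st, Stat3 and Bcl3 were -0.72, -0.59, -0.54 and -0.34, all called, and that of Lif was -0.30 (limma adjusted p = 0.0609). The member called higher was Socs3, whose values rest on 2 and 0 bound reads in serum and 4 and 1 in LT2i, and the call was lost without the input (limma adjusted p = 0.188), over 5 kb each side of the start (0.140) and without serum replicate 1 or 2 or LT2i replicate 1 (limma adjusted p 0.0614 to 0.110). The median change of the 9 members in LT2i was -0.78, beside -0.63 for all genes. This median is the value of Lif, and it counts Socs3, Pim1, Gbx2 and Junb, whose changes are not interpreted. Expression at LT2i was not measured in this table, so the mark and the RNA were not compared at the same time, and the error of the single input of each medium is not in the test. Of the 5 genes lower in LT2i, Bcl3 and Lif had risen and Lifr had fallen in RNA by 72 h.

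**Figure D5:**
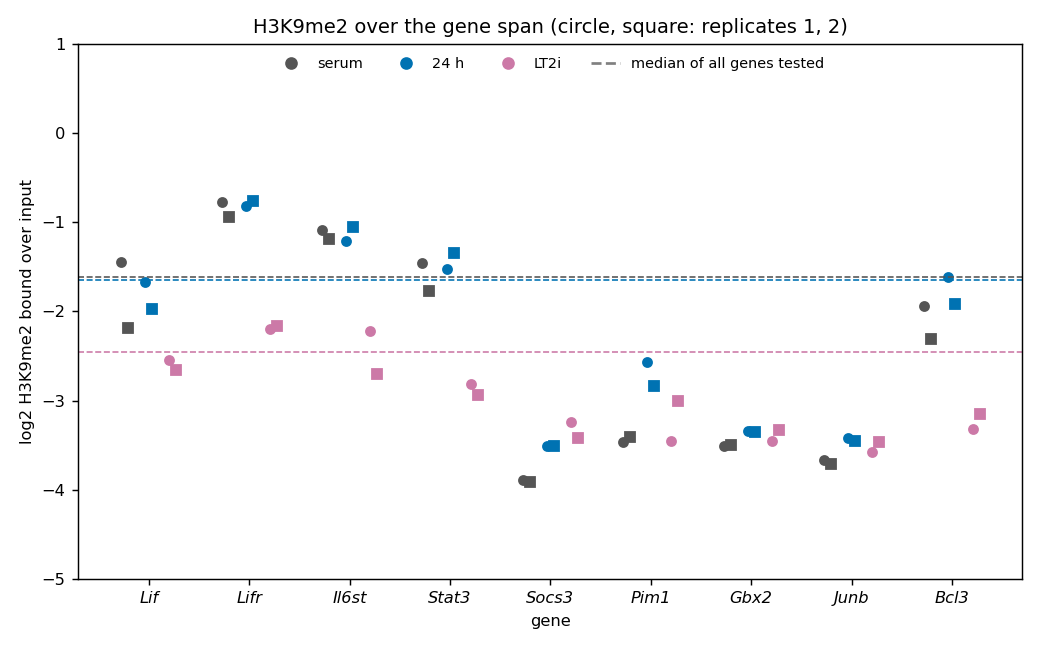
Log2 H3K9me2 bound over input across the gene span (vertical axis) of the 9 genes in serum, after 24 h in 2i and in LT2i, with 1 point per bound library and dashed lines at the median of all 11762 genes in each medium. Lifr, Il6st, Stat3, Bcl3 and Lif were lower in both LT2i libraries than in serum, and Socs3, Pim1, Gbx2 and Junb lay below the serum median of -1.62 throughout.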

How the data were processed

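The authors deposited log2 expression values per gene for RNA-seq, corrected for exon length and library depth. They also deposited log2 reads per 2-kb bin for H3K9me2 ChIP-seq and inputs, scaled to a common total. The submitters' processing notes name Trim Galore 0.3.5, TopHat2 2.0.11, Bowtie2 and GRCm38, and no source used here names the counter. Genes without reads had been entered as 0.9 reads. Single-exon genes without reads (2091) gave the worth of 1 read in each library, and the smallest exon length at which all 12 values were whole gave the reads. The totals leave out 26 rows.

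Genes with a log2 value of 0 or more in at least 3 of 12 libraries were tested with limma 3.58.1 in R 4.3.3 (lmFit, eBayes with trend, all groups in 1 fit, Benjamini-Hochberg over all genes). H3K9me2 used the mean reads per bin over the gene span plus 1, divided by the input of the same medium, in 14396552 to 23785128 reads per library. Fits were tested on simulated data with independent noise of the same spread in every group. These data held no wider spread at 24 h, no span trend and no deviations shared by replicate number, so they do not test the fits against those. Alternatives were other filters, scalings, a pseudocount of 1, removal of the span trend, 2 groups only, a replicate block and leaving out each library, and limma-voom on recovered reads was added after seeing the data. The 9 members and the gene lists were chosen with earlier results of these data known. All 9 members and, of the pathway list, the 5 largest called changes at 72 h, the 3 largest at 6 h and 5 fixed genes (Jak1, Osmr, Klf4, Tfcp2l1, Myc) are named, except 1 gene that is not reported here. Bisulfite data of the series, on build NCBIM37, were not used here.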

Additional observations from a re-analysis of the deposited data

How the results depend on the processing

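Of the 29 called changes of members in RNA, 18 kept their direction and their call under every alternative fit that gave a value, the required log2 change of 1 set aside, among them all calls of Lifr, Gbx2 and Junb against serum, Il6st at 24 h and Lif, Pim1 and Bcl3 at 72 h. The calls of Socs3 and Pim1 at 6 h, Lif and Stat3 at 24 h and 7 of the changes between successive times did not. With the span trend removed, 2 members in place of 4 were called at 6 h (Lifr and Junb) and 4 in place of 7 from 6 to 24 h, and Socs3 stood at -0.38 (24 h against serum), -0.060 (72 h against serum) and -0.059 (24 h against 6 h), Pim1 at -0.37 and Bcl3 at -0.021 (both 24 h against serum). Calls were gained there for Socs3 at 24 h against serum (-0.38), Junb from 6 to 24 h (-0.59) and Socs3 from 24 to 72 h (0.32). The cause was not tested. Quantile normalisation turned small values that were not called, Lif (-0.056) and Bcl3 (0.0090) at 6 h and Socs3 (-0.00066) and Pim1 (-0.063) at 24 h, and recovered reads turned Bcl3 at 6 h (0.0086). The call of Pim1 at 6 h was lost under quantile normalisation (-0.47, limma adjusted p = 0.0618). With 2 groups only, 3 members in place of 6 were called from 24 to 72 h, without Lifr, Stat3 and Pim1 (limma adjusted p 0.0596 to 0.129). A required log2 change of 1 left 0 members at 6 h, 2 at 24 h, 2 from 6 to 24 h and 0 from 24 to 72 h. The filter on a mean of 1 left Lif out.

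Without 1 library the members called at 6 h ran from 2 to 4. Changes that turned sign without 1 library ran, at 6 h, from -0.13 to 0.12 for Lif, from -1.6e-06 to 0.13 for Stat3 and from -0.085 to 0.031 for Bcl3. At 24 h against serum they ran from -0.026 to 0.13 for Socs3 and from -0.085 to 0.17 for Pim1, at 72 h from -0.020 to 0.11 for Stat3, from 6 to 24 h from -0.18 to 0.059 for Junb, and from 24 to 72 h from -0.057 to 0.099 for Socs3. Where this left a group with 1 H3K9me2 library, that library was assumed to vary like the others.

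For H3K9me2 the falls of Il6st and Stat3 in LT2i stayed called under all alternatives run, at sizes down to -0.59 and -0.54 with 10 reads added per bin, where Lif was no longer called (-0.30). Without the input the 24 h changes of Lif, Lifr and Il6st were 0.17, -0.0087 and -0.18. With 5 kb each side of the start in place of the span, those of Il6st, Stat3 and Gbx2 were -0.34, -0.34 and -0.54 at 24 h, and those of Pim1, Gbx2 and Junb -0.12, -1.20 and -0.37 in LT2i, where Gbx2 was then called (limma adjusted p = 0.000371), and Lifr (0.115) and Bcl3 (0.141) were not. For Il6st that start lies away from the RefSeq promoter window. Without 1 library the 24 h changes ran from -0.38 to 0.37 for Lif, from -0.019 to 0.16 for Lifr and from -0.076 to 0.081 for Il6st, and the LT2i change of Pim1, which rests on 0 to 4 bound reads, from -0.017 to 0.43.

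No source used here says what the replicate numbers share, and they were not taken as pairs. Of 18 pairs of libraries with the same number in different groups, 15 had deviations correlated over 0.1 (median 0.29, lowest -0.25), beside 11 of 36 with different numbers (median -0.21). Not every library was closest to its own number, as 24 h replicate 1 correlated at 0.75 with 72 h replicate 2 and at -0.25 with 72 h replicate 1. With the replicate block, 4, 6 and 6 members were called at 6, 24 and 72 h, 7 from 6 to 24 h and 7 from 24 to 72 h, where Junb was added (limma adjusted p = 0.0456), and for H3K9me2 0 and 6. Depth limits Lif most in RNA. In H3K9me2 it limits Socs3, Pim1, Gbx2 and Junb in every medium, and Bcl3 and Lif in LT2i.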
